A study of Mus musculus with 6 samples.

Results

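The striated muscle myosin genes were examined in cultured cardiomyocytes, the beating muscle cells of the heart, with and without the RIT1 M90I variant. The group holds 10 genes of the 54532 listed in the expression table, and all 10 were found by their gene symbols. They are 3 heavy chains (Myh6, Myh7 and Myh7b), 6 light chains (Myl1, Myl2, Myl3, Myl4, Myl7 and Mylpf) and Mylk3, the cardiac kinase of the regulatory light chain. In 9 of the 10 the mean was lower in the cells with the variant, where 50.4% of all genes tested had a lower mean. In 1, Mylpf, it was higher. All 12 cardiomyocyte markers examined were lower too, with a median log2 fold change of -0.80 against -0.49 for the members. In the limma fit 0 of the 10 had an adjusted p under 0.05, and 4 had one with a term for each replicate number. The largest log2 differences among the 10 members were in Myl1 (63.7 against 21.5 FPKM) and in Myl2, the ventricular regulatory light chain (353 against 161 FPKM).

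RNA-seq was performed on primary cells isolated from the hearts of neonatal mice whose Rit1 locus carries a Cre-inducible M90I allele. Control cultures (AdGFP, Rit1 +/+, here cells whose inducible allele was not switched on by Cre) received an adenovirus encoding GFP. The others (AdCre, Rit1 M90I/+) received an adenovirus encoding GFP together with Cre recombinase, which switches on the variant. Virus was given on day 3 of culture and RNA was taken 6 days later, with 3 biological replicates in each group, numbered 1 to 3 in both. The comparison addresses which transcripts change when RIT1 M90I, a RAS-related GTPase variant of Noonan syndrome, is expressed in heart cells. No culture without the inducible allele received Cre, so effects of the recombinase and of the variant cannot be told apart. Cells were plated at about 1 heart per well, and gene-level values do not separate the M90I transcript from the wild-type transcript.

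Myosin forms the thick filament of the sarcomere and pulls on actin as it hydrolyses ATP. Each heavy chain carries an essential and a regulatory light chain on its neck, and phosphorylation of the regulatory chain tunes contraction. In the mouse heart the fast α-heavy chain (Myh6) replaces the slower β-heavy chain (Myh7) around birth, Myl2 and Myl3 mark the ventricle, and Myl7 and Myl4 mark the atrium and the early heart.

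The promoters of 3 members are shown because members in which AdCre and AdGFP differed to a different degree are set side by side with the motifs of cardiac regulators before their starts. The sequences come from RefSeq (GRCm38.p6), run 5′ to 3′ on the strand of the gene and stop before the exon annotated at the RefSeq start they precede. For Myl3 and Mylk3 GENCODE also annotates transcripts that begin farther upstream, so these windows lie inside the gene spans given for them, and that of Myl7 lies outside its span. Capitals mark matches to motifs. Myl3 is read from chr9:110763428-110763645 (plus strand), Myl7 from chr11:5898783-5899032 (minus strand) and Mylk3 from chr8:85381042-85381291 (minus strand, before 1 of its 2 RefSeq starts).
Myl3: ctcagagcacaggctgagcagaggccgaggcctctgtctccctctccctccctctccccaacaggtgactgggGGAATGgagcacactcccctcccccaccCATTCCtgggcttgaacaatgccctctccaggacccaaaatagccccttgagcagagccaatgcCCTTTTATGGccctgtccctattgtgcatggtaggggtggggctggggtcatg
Myl7: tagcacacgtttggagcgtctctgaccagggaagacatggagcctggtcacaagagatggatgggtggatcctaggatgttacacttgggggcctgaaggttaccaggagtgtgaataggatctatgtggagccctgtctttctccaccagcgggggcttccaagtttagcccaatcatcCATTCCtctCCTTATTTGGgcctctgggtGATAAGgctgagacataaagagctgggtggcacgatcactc
Mylk3: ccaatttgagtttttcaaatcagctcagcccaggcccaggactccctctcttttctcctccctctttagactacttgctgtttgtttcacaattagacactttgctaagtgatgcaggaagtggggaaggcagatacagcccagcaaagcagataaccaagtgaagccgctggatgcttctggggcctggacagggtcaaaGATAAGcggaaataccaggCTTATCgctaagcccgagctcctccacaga
Motifs were searched on both strands of the 250 bases before each start of all 10 members. They were the TATA box (TATAAA), the CArG box bound by SRF, the MEF2 site, a GATA site (GATAAG), the MCAT element bound by TEAD factors (CATTCC) and an E-box (CAGCTG). Myl3 and Myl7 each held a CArG box, at 85 to 76 and at 61 to 52 bases before the start. Of 32851 mouse promoters of this length 1.47% held one. No other member held a CArG box, no member held a MEF2 site, and Myh7b and Myl4 held no motif searched. The 3 promoters shown were picked, and those of Myl1 and Myl2, which differed most on the log2 scale, are not among them. Whether the members hold more motifs than other genes was not tested. Myl3 also held 2 MCAT elements, Myl7 a GATA site and an MCAT element, and Mylk3 held 2 GATA sites. A GATA site was present in 6.55% of all promoters and an MCAT element in 12.6%. These matches describe the letters of the window and do not show that a factor binds there.

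MicroRNA genes lie inside the introns of the 3 heavy chain genes, and their mature sequences are shown to give the relation between them, with the seed (bases 2 to 8) in capitals.
mmu-miR-208a-3p, within Myh6: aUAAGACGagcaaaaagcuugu
mmu-miR-208b-3p, within Myh7: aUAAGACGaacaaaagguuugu
mmu-miR-499-5p, within Myh7b: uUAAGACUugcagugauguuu
The miR-208a and miR-208b sequences share 1 seed, UAAGACG, while that of miR-499 is UAAGACU. Mature microRNAs are not measured by libraries of polyadenylated RNA, and only reads over the hairpins were counted. The Mir208b hairpin had 15, 25 and 10 reads in AdGFP and 4, 10 and 7 in AdCre, and the groups met at 10 reads. In FPKM its log2 fold change was -1.40 (SE 0.46), uncalled without a term for each replicate number (limma adjusted p 0.373) and called with it (limma adjusted p 0.0471). Since the hairpin lies within Myh7 such reads may belong to the unspliced host transcript, which was not tested. Myh7 itself had a log2 fold change of -0.24. Mir208a had between 0 and 8 reads per sample and Mir499 had 0 in all 6, which allows up to 3.

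Values are FPKM, fragments scaled to exon length and sequencing depth, so levels can be compared between genes. Totals worked back from the deposited values were 25.3 to 32.4 M reads (megareads) per sample, and the members with the fewest reads were Mylpf (4 to 25 per sample) and Myh7b (100 to 490). Each gene was tested in limma on log2(FPKM + 0.1) over 13794 genes, and a gene counts as called when its adjusted p lies under 0.05. The fold changes given are on that scale, which understates the change of low genes. Samples with the same replicate number deviated together, so a fit with the replicate number as a block (a term for each pair) is given beside the fit without it wherever the call differs.

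All 10 members had a mean of at least 0.5 FPKM and were tested. Without the block 0 of the 10 were called, where 0.00725% of all genes were, and 2, both lower, had an unadjusted p under 0.05 (10.2% of all genes, or 5.45% counting those that were lower). With the block 4 of the 10 were called, Myl1, Myl2, Myl4 and Mylk3, all of them lower in AdCre. Of all genes, 6.15% were called with the block and 3.51% were called lower. Of the 10 members, 7 were lower in AdCre in all 3 pairs, against 24.5% of all genes. The groups did not overlap for 2 of 10 (Myl1 and Mylk3), against 8.02% of all genes that were lower without overlap. The median log2 fold change of the members was -0.49 and that over all genes was -0.002. Leaving out pair 3 left 0 members called with the block, and leaving out pair 2 left 3. Without the intensity trend the block called 0 members and 0 of all genes, and with no filter on low values it called 1 member, Myl1.

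**Figure D1:**
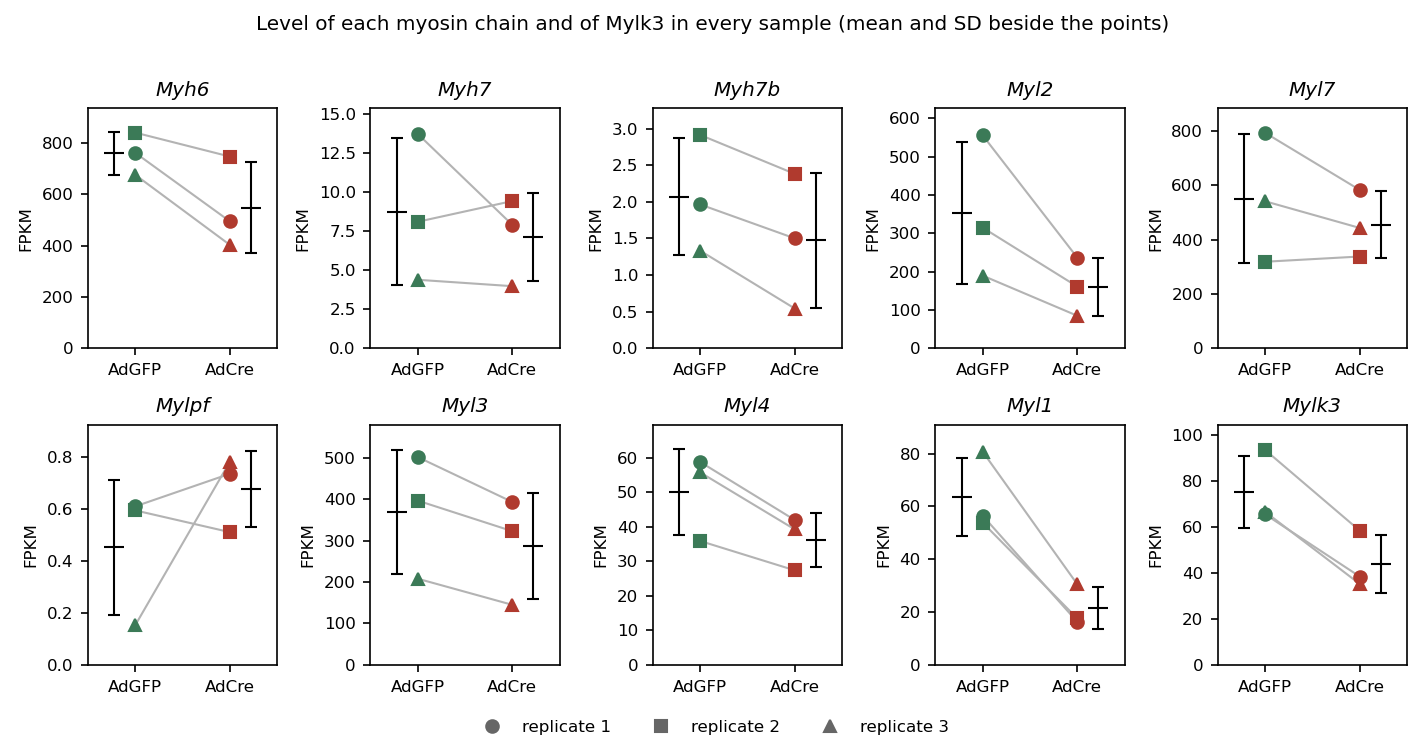
FPKM (vertical axes, each from 0) of the 10 members in AdGFP and AdCre, 1 panel per gene. Points are samples, marked by replicate number and joined by grey lines within a number, and the bars beside them give the mean and SD of 3 samples. Most lines run downward from AdGFP to AdCre, and only Myl1 and Mylk3 have every AdCre point below every AdGFP point.

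Among the heavy chains Myh6 was by far the most abundant. Myh6 (chromosome 14, 54941921 to 54966927, GRCm38) encodes the α-heavy chain, the main motor of the adult mouse heart. Levels were 760, 839 and 675 FPKM in AdGFP replicates 1 to 3 and 494, 746 and 402 FPKM in AdCre. AdCre replicate 2 lay within the range of AdGFP, while AdCre replicates 1 and 3 lay below it. The means were 758 ± 82.1 and 547 ± 178 FPKM (SD, n = 3 each), with a log2 fold change of -0.51 (SE 0.25, limma adjusted p 0.566). The difference was negative in each pair, at -0.62, -0.17 and -0.75, and the blocked fit left it uncalled (adjusted p 0.0797).

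Myh7 (chromosome 14, 54970684 to 54994626), the β-heavy chain that returns in the stressed rodent heart, was at 13.7, 8.11 and 4.40 FPKM in AdGFP and at 7.91, 9.44 and 3.99 FPKM in AdCre. The spread within each group exceeded the distance between their means, and pair 2 ran opposite to pairs 1 and 3. The log2 fold change was -0.24 (SE 0.46, limma adjusted p 0.928), with a 95% interval from -1.34 to 0.86. Myh6 and Myh7 lie next to each other, and 20.2% of the 50-base words of Myh6 transcripts and 15.6% of those of Myh7 are shared, mostly with each other. Reads from these stretches could be assigned to either gene or dropped. Exons of antisense genes cover 13.3% of the exon bases of Myh7, and use of strand in counting is not given in the sources used here. One of them is Mhrt, a long noncoding RNA transcribed against Myh7, which was at 2.30, 2.34 and 1.67 FPKM in AdGFP and at 0.720, 1.91 and 0.416 FPKM in AdCre (log2 fold change -1.20, SE 0.48, limma adjusted p 0.474).

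Myh7b (chromosome 2, 155611212 to 155634307), an ancient slow heavy chain that makes little protein in the heart, was at 1.96, 2.91 and 1.33 FPKM in AdGFP. In AdCre it was at 1.5, 2.38 and 0.544 FPKM. Each AdCre sample lay below the AdGFP sample of its number, and the groups overlapped (log2 fold change -0.60, SE 0.52, limma adjusted p 0.781). It was -0.057 without AdCre replicate 3 and -1.03 without AdCre replicate 2.

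Of the regulatory light chains, the ventricular form differed most. Myl2 (chromosome 5, 122100951 to 122113472), whose product is the ventricular regulatory light chain, was at 555, 315 and 190 FPKM in AdGFP and at 237, 161 and 85.1 FPKM in AdCre. Levels in both groups were highest in replicate 1 and lowest in replicate 3, so the ranges overlapped. Within the pairs AdCre held 42.6%, 51.2% and 44.9% of the AdGFP level. The fitted difference was -1.12 on the log2 scale, and its standard error was 0.48 without the block (limma adjusted p 0.504) and of 0.085 with it (limma adjusted p 0.0097).

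Myl7 (chromosome 11, 5896637 to 5898782), the atrial regulatory light chain, was at 792, 318 and 540 FPKM in AdGFP and at 582, 337 and 442 FPKM in AdCre. The AdCre samples lay inside the AdGFP range, and in pair 2 the AdCre sample was the higher one. The fitted difference was -0.22 on the log2 scale (SE 0.36, limma adjusted p 0.909), with a 95% interval from -1.07 to 0.64.

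Mylpf (chromosome 7, 127208890 to 127214298), the regulatory light chain of fast skeletal muscle, was at 0.610, 0.594 and 0.153 FPKM in AdGFP and at 0.735, 0.510 and 0.782 FPKM in AdCre. The low AdGFP replicate 3 rested on 4 reads, and the groups overlapped. The fitted difference was 0.62 on the log2 scale (SE 0.49, limma adjusted p 0.761). Without AdGFP replicate 3 it was 0.13, and with the block without pair 3 it was 0.025.

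Of the essential light chains, the widest difference on the log2 scale was in Myl1 rather than in either cardiac form. Myl1 (chromosome 1, 66924295 to 66945404) encodes the fast skeletal essential light chain, which is also made in the embryonic heart. It was at 56.5, 53.9 and 80.7 FPKM in AdGFP and at 16.3, 17.6 and 30.6 FPKM in AdCre. Every AdCre sample lay below every AdGFP sample, and replicate 3 was highest in both groups. The means were 63.7 ± 14.8 and 21.5 ± 7.88 FPKM (SD, n = 3 each), a ratio of 2.96 in favour of AdGFP. On the log2 scale it differed by -1.60 (SE 0.27, limma adjusted p 0.158 without the block and 0.0063 with it). By p-value it ranked 55 of 13794 genes without the block and 8 with it. A share of 11.7% of its 50-base words recurs in other transcripts, mostly in the pseudogene Mylf-ps.

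Myl3 (chromosome 9, 110741861 to 110769798), the ventricular essential light chain, was at 501, 396 and 208 FPKM in AdGFP and at 393, 323 and 145 FPKM in AdCre. The spread between replicates of a group was wider than the difference between groups, which was -0.35, -0.30 and -0.52 on the log2 scale in the 3 pairs. It was called neither without the block (log2 fold change -0.39, SE 0.46, limma adjusted p 0.852) nor with it (limma adjusted p 0.0546).

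Myl4 (chromosome 11, 104550663 to 104595753), the atrial and embryonic essential light chain, was at 58.8, 35.9 and 55.8 FPKM in AdGFP and at 42.0, 27.4 and 39.3 FPKM in AdCre. Replicate 2 was lowest in both groups, and the ranges overlapped through AdGFP replicate 2 alone. The fitted difference was -0.46 on the log2 scale (SE 0.24), which was not called without the block (limma adjusted p 0.60) and was called with it (limma adjusted p 0.029).

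Mylk3 (chromosome 8, 85324303 to 85386345) encodes the cardiac myosin light chain kinase, which phosphorylates the product of Myl2. It was at 65.5, 93.6 and 66.6 FPKM in AdGFP and at 38.5, 58.4 and 35.2 FPKM in AdCre. No AdCre sample reached the lowest AdGFP sample, and replicate 2 was highest in both groups. The log2 fold change was -0.79 (SE 0.23, limma adjusted p 0.340 without the block and 0.0144 with it).

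**Figure D2:**
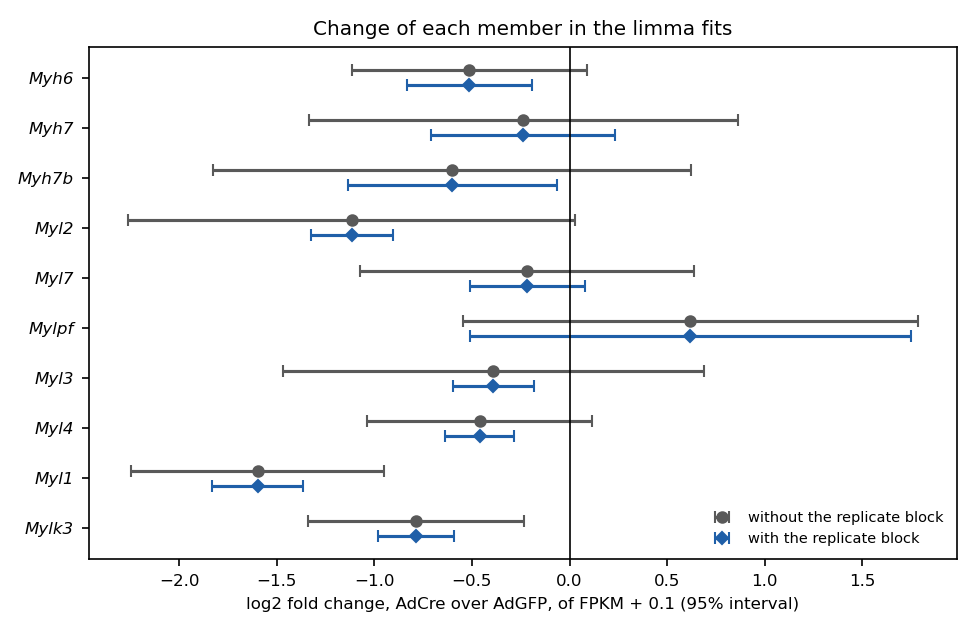
Log2 fold change of FPKM + 0.1, AdCre over AdGFP (horizontal axis), for the 10 members, with 95% intervals from the limma fits without (grey circles) and with (blue diamonds) the replicate block, 3 samples per group. The block leaves the estimates in place and narrows the intervals, and Myl1 lies farthest to the left at -1.60.

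In AdGFP the order of levels from high to low was Myh6, Myl7, Myl3, Myl2, Mylk3, Myl1, Myl4, Myh7, Myh7b and Mylpf. Neighbours in this order overlapped in range, except that Myl2 lay wholly above Mylk3, Myl4 above Myh7, Myh7 above Myh7b and Myh7b above Mylpf. In AdCre the order was the same, with Myl4 (36.2 ± 7.75 FPKM) above Myl1 (21.5 ± 7.88 FPKM) and overlapping it. Summed over the 9 chains, transcripts made up 0.806%, 0.657% and 0.631% of the summed FPKM of all genes in AdGFP. In AdCre they made up 0.580%, 0.572% and 0.426%, below every AdGFP sample (exact two-sided permutation p 0.1, the smallest that 3 against 3 samples allow). Their summed FPKM overlapped between the groups, at 1755 to 2740 in AdGFP and 1150 to 1774 in AdCre (exact two-sided permutation p 0.2). Regulatory chains exceeded essential chains by a ratio of 1.87 ± 0.491 in AdGFP and 1.88 ± 0.554 in AdCre.

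Shares within pairs of isoforms were compared next, since a share does not depend on the total amount of myosin transcript. Myh7 made up 1.78%, 0.958% and 0.648% of the sum of Myh6 and Myh7 in AdGFP and 1.58%, 1.25% and 0.982% in AdCre, so nearly all heavy chain transcript was of the α form in both groups. The difference was 0.142 percentage points (exact two-sided permutation p 0.7, adjusted over 3 shares 0.8), and its sign was not the same in all pairs. Myl7 made up 58.8%, 50.3% and 74.0% of the sum of Myl2 and Myl7 in AdGFP and 71.1%, 67.7% and 83.9% in AdCre. The atrial share was higher in AdCre in each pair, by 12.3, 17.4 and 9.85 percentage points, but the ranges overlapped. The difference of 13.2 points had an exact two-sided permutation p of 0.3 (0.8 adjusted), and the paired exact permutation p was 0.25, the smallest 3 pairs allow. Myl4 made up 10.5%, 8.31% and 21.2% of the sum of Myl3 and Myl4 in AdGFP and 9.66%, 7.83% and 21.3% in AdCre, with pairs almost level (exact two-sided permutation p 0.8, 0.8 adjusted). The atrial share was thus higher in AdCre in 3 of 3 pairs for Myl7 and in 1 of 3 for Myl4, and the difference between these shares was not tested.

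**Figure D3:**
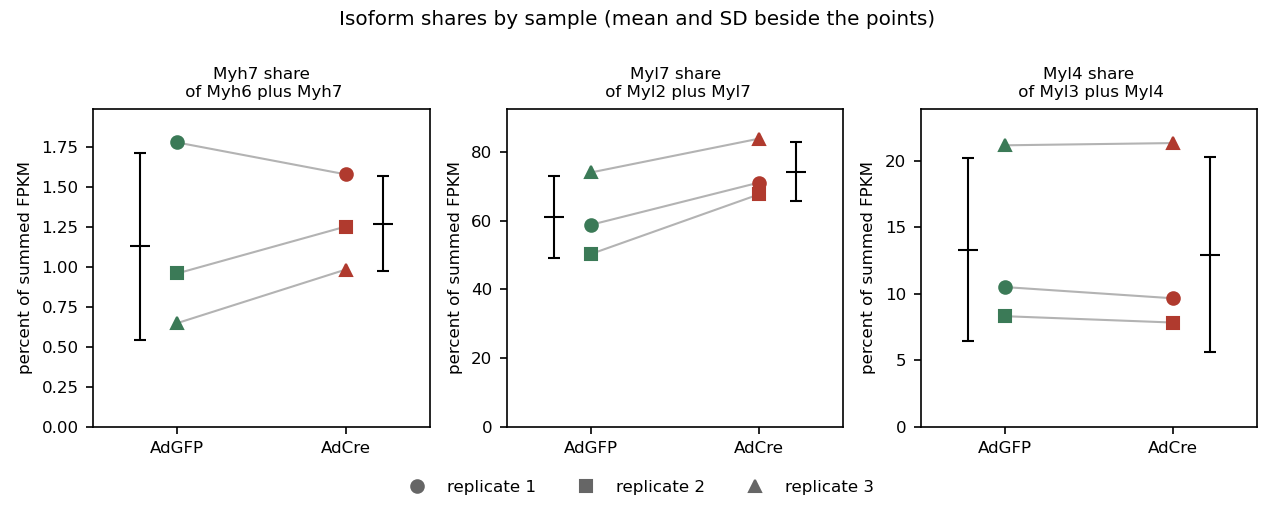
Percent of the summed FPKM of 2 isoforms (vertical axes, from 0) in AdGFP and AdCre for Myh7, Myl7 and Myl4. Points are samples joined within a replicate number, and bars give the mean and SD of 3 samples per group. The Myl7 share is higher in AdCre on each of the 3 lines, while the lines for Myl4 are almost flat.

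The cultures were checked against markers of cardiomyocytes and of other cells of the heart. All 12 cardiomyocyte markers were present and all 12 were lower in AdCre, with a median log2 fold change of -0.80 and 10 of 12 called with the block (0 without it). Those with the smallest p-values were Actn2, the Z-disc crosslinker (-1.05, SE 0.23), Myoz2, a Z-disc protein (-1.55, SE 0.35), and Pln, the inhibitor of the calcium pump of the sarcoplasmic reticulum (-1.31, SE 0.30). Their summed level was 1565 to 2115 FPKM in AdGFP and 909 to 1356 FPKM in AdCre. In bulk samples fewer cardiomyocytes in a culture and less of these transcripts per cardiomyocyte cannot be told apart.

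Markers of other cells were also present in both groups. The 9 fibroblast markers summed to 2626 to 4696 FPKM in AdGFP and 2305 to 3375 FPKM in AdCre (1 higher and 8 lower, 3 called lower with the block, Dcn, Lum and Col3a1). None on this list or the next 2 was called without the block. The 10 endothelial markers summed to 95 to 147 and 139 to 206 FPKM (9 higher, 4 called higher with the block), and 8 of 9 macrophage markers were tested, all higher, with sums over the 9 of 51.7 to 284 and 91.2 to 356 FPKM (2 called higher with the block). The 8 mural cell markers summed to 849 to 1327 and 1009 to 1223 FPKM with 0 called in either fit. No marker on these lists was at 0 in all samples. The part of cell composition in the myosin values was not tested.

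To place the myosin genes beside the rest of the cardiomyocyte program, each was expressed relative to the mean log2 level of the 12 markers in the same sample. That mean differed by -0.84 between the groups (-0.95, -0.62 and -0.93 in the pairs). The median log2 fold change over all genes was -0.002, so most genes lie higher on this measure. A member that fell by less than the markers is higher relative to them by construction. The share of all genes that were higher in this way was not computed. Myl1 lay below the markers by a further -0.76, with -0.84, -0.98 and -0.46 in the pairs. Myl2 lay -0.28 lower than they did, with -0.28, -0.34 and -0.22. These were the only members that were lower relative to the markers in all 3 pairs. Mylk3 differed from the markers by 0.05 (0.18, -0.05 and 0.02 in the pairs). Myh6 was higher relative to them by 0.32 (0.33, 0.45 and 0.19 in the pairs), without overlap of the groups, and Myl3, Myl4 and Myl7 were higher by 0.45, 0.38 and 0.62. Myh7 was higher relative to the markers by 0.60, also in all 3 pairs (0.16, 0.84 and 0.80), and Myh7b by 0.24, in pairs 1 and 2. Mylpf, with its few reads, was higher by 1.45, in all 3 pairs and without overlap. So the sign of Myh6, Myh7, Myh7b, Myl3, Myl4, Myl7 and, by the small 0.05, Mylk3 turned with this reference, and that of Myl1, Myl2 and Mylpf did not. These differences are descriptive, and the reference was added after the values had been seen.

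**Figure D4:**
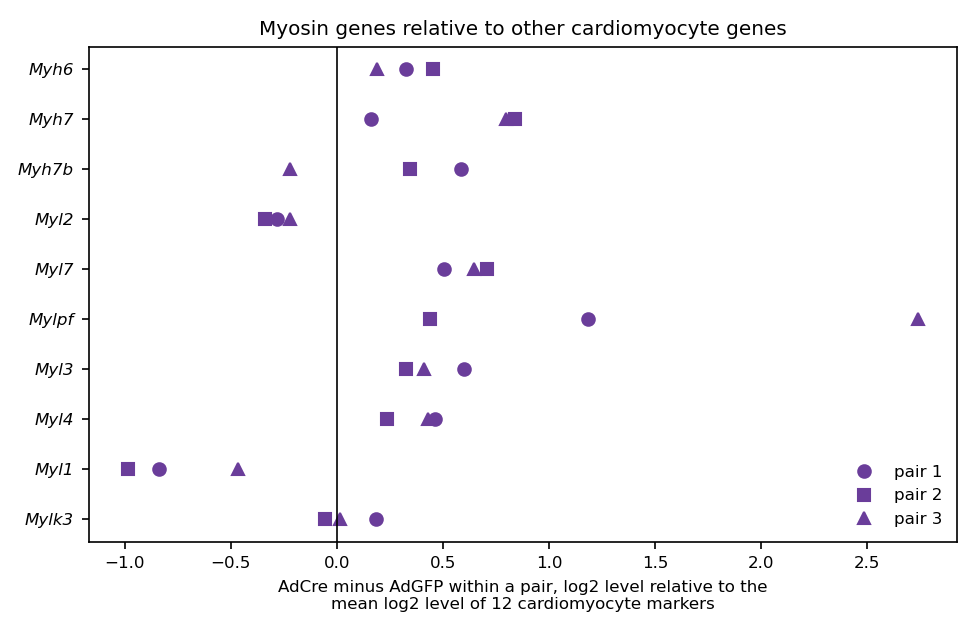
Difference of AdCre minus AdGFP within each of the 3 pairs (horizontal axis, log2), after the mean log2 level of 12 cardiomyocyte markers was subtracted in each sample, for the 10 members. Myl1 and Myl2 lie left of 0 in all 3 pairs, Mylk3 lies around 0, Myh7b lies on both sides, and Myh6, Myh7, Myl3, Myl4, Myl7 and Mylpf lie right of 0 in all 3.

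Partners of myosin in the thick filament were examined next. Of 8 genes 6 were tested, all 6 of these were lower in AdCre, the median log2 fold change was -0.49, and 3 were called with the block (0 without it). The other two, Mybph and Myom3, were under the level needed for testing and had higher means in AdCre (0.103 against 0.393 FPKM and 0.366 against 0.475 FPKM, AdGFP first). Mybpc3, cardiac myosin-binding protein C, fell with the block from 412 ± 99.4 to 212 ± 42.6 FPKM (log2 fold change -0.95, limma adjusted p 0.0176 and, without the block, 0.292). Myom1, which crosslinks thick filaments at the M-band, fell with the block by 0.80 (limma adjusted p 0.0488, 0.352 without), and Obsl1, a cytoskeletal adaptor, fell with the block by 0.43 (limma adjusted p 0.0372, 0.416 without).

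The list of genes that phosphorylate, dephosphorylate, fold or degrade myosin was mixed, with 6 of 18 higher, 12 lower and a median of -0.07. None was called without the block (0 of 18) and 4 were called with it, all lower. With the block these included Trim55, a muscle ubiquitin ligase (-0.81, limma adjusted p 0.0119, 0.261 without), Smyd1, a muscle methyltransferase needed for sarcomere assembly (-0.59, limma adjusted p 0.0286, 0.448 without), and Unc45b, the myosin chaperone (-0.43, limma adjusted p 0.0443, 0.294 without). Mylk2, the skeletal muscle light chain kinase, averaged 0.592 ± 0.206 FPKM in AdGFP and 1.16 ± 0.215 FPKM in AdCre (limma adjusted p 0.104 with the block), a difference opposite in sign to that of Mylk3.

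Of 14 transcription factors known to act on myosin genes, 6 were higher and 8 lower, with a median of -0.18, and 2 were called with the block (0 without it). These were Nkx2-5, a cardiac homeobox factor (73.3 ± 10.4 against 45.8 ± 10.4 FPKM, log2 fold change -0.69, limma adjusted p 0.0188 with the block and 0.340 without), and Myocd, the cofactor through which SRF acts at CArG boxes (-0.55, limma adjusted p 0.043 with the block and 0.417 without). Thra, the thyroid hormone receptor that raises Myh6 and lowers Myh7, was at -0.33 (limma adjusted p 0.0887 with the block), and Mef2c, a MADS-box factor, was at -0.37 (limma adjusted p 0.149 with the block).

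Chamber markers were examined beside the Myl2 and Myl7 values. All 3 ventricular markers, the transcription factors Irx4, Irx5 and Hey2, were lower in AdCre, at -0.64, -0.79 and -0.86. Their median of -0.79 was close to the -0.80 of the 12 cardiomyocyte markers. Irx4 and Irx5 were called with the block (limma adjusted p 0.0312 and 0.0199) and not without it (0.638 and 0.191). Of 9 atrial markers 7 were tested, 3 higher and 4 lower, with a median of -0.10. Bmp10 and Kcna5 were under the level needed for testing. Bmp10 averaged 0.128 FPKM in AdGFP and 0.358 in AdCre without overlap, and Kcna5 0.402 and 0.337 FPKM with overlap. Sln, the atrial calcium pump regulator sarcolipin, was at -1.20 and Nppa, atrial natriuretic peptide, at -0.61, both called lower with the block (limma adjusted p 0.0119 and 0.0421) and uncalled without it (0.341 and 0.641), and Hey1 was at 0.46 (limma adjusted p 0.238 with the block). The tested atrial markers thus lay on both sides of 0.

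Genes of skeletal muscle were examined because Myl1 and Mylpf are best known there. Of 11 markers 4 were tested. Tnnt3 and Tnni2, fast skeletal troponins T and I, rose with the block from 6.42 ± 1.18 to 22.2 ± 5.26 FPKM and from 1.99 ± 0.489 to 6.57 ± 1.91 FPKM (log2 fold changes 1.76 and 1.66, limma adjusted p 0.0051 and 0.0336). Neither was called without the block (limma adjusted p 0.102 and 0.144). Mybpc2, the fast skeletal myosin-binding protein C, was at 10.3 ± 2.54 and 5.78 ± 2.03 FPKM (-0.86, limma adjusted p 0.144 with the block). The myogenic factors Myod1, Myog, Myf5, Myf6 and Pax7 were all under the level needed for testing. The skeletal and embryonic chains Myh1, Myh2, Myh3, Myh4, Myh8, Myh13 and Myl10 were under it too, with a summed level of 0.183 to 0.443 FPKM in AdGFP and 0.236 to 0.303 FPKM in AdCre. Fast skeletal genes thus went in both directions, Myl1 lower and the 2 troponins higher.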

How the data were processed

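Polyadenylated RNA of 6 cultures was sequenced, and the authors deposited 1 FPKM value per gene and sample, without pooling. The submitters' processing notes name fastp, STAR 2.5, HTSeq 0.6.1 and mm10, and the use of strand is not given in the sources used here. Symbols, exon lengths and coordinates came from GENCODE M21 (GRCm38), which held 54495 of the 54532 gene IDs. The members and gene lists were chosen with earlier results of these data known.

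FPKM times exon length gave whole reads in every sample for 96.7% of 28433 genes (tolerance 0.01), and these reads gave the depth and a voom fit. The FPKM denominators were 0.931 to 1.03 times the read totals. Values were fitted as log2(FPKM + 0.1) in limma 3.58.1 (R 4.3.3, lmFit and eBayes with a trend) for genes averaging at least 0.5 FPKM, with p-values adjusted by the Benjamini-Hochberg method. Fits were tested on simulated data. Shares were compared by exact two-sided permutation tests.

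Deviations from the group means correlated at 0.568, 0.268 and 0.506 between same-numbered samples and at -0.497 to 0.0364 between others. The replicate numbers were therefore taken as pairs, on the values alone. Deviations sum to 0 within a group, so the negative correlations are not separate evidence from the positive ones. The labels call the samples biological replicates without naming cultures or litters, so p-values measure the spread between these samples.

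All members were named, and from each list the 3 genes with the smallest p (4 for partners, control and transcription factors), except 1 that is not reported here. Mhrt and the hairpins were named for their position. Lum, Mybph, Myom3, Myh14, Bmp10 and Kcna5 were named after their values were seen. Tried as alternatives were the block, other pseudocounts (1 and 0.01), a filter at 1 FPKM or none, TPM, median centring, quantile normalization, no trend and omission of single samples. Chosen after seeing the data were voom, the block with each of these, and levels relative to cardiomyocyte markers.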

Additional observations from a re-analysis of the deposited data

How the results depend on the processing

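Which members were called depended on the replicate block and on pair 3. The count of members called was 0 in each fit without a block and 4 with the replicate block. With the block it was also 4 at a pseudocount of 1, at 0.01, after rescaling to TPM, median centring and quantile normalization. It was 6 with voom, 5 at a mean of at least 1 FPKM, 1 with no filter on low values and 0 with eBayes without a trend, and between 0 (without pair 3) and 4 when a pair was left out. Myl1 was called in 11 of 13 blocked settings, Myl2 and Mylk3 in 10, Myl4 in 9, Myl3 in 2 and Myh6 in 1. Over 28 settings the log2 fold change ran from -1.88 to -1.41 for Myl1, from -1.50 to -0.72 for Myl2 and from -1.01 to -0.62 for Mylk3. The median over the members ran from -0.70 to -0.27 when single samples were left out. The cause of these differences between settings was not tested.

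Over all genes, 1 was called without the block, 3 at a pseudocount of 1, 4 without a trend, and 0 with no filter or with voom on recovered reads, and 0 to 2 when a sample was left out. With the replicate block 848 were called, and with it 784 at a pseudocount of 1, 782 at 0.01, 17 with no filter, 922 at a mean of at least 1 FPKM, 875 after rescaling to TPM, 778 after median centring, 762 after quantile normalization, 1741 with voom and 0 without a trend. Leaving out a pair gave 1 to 772 (149 without pair 2). The share of blocked calls in the upward direction was 42.9% for the values as given, 61.5% in TPM and 57.6% with voom. The rescaling moved the median of all genes to 0.09.

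The difference in Myh7 share ran from -0.0974 to 0.467 percentage points when a sample was left out, turning negative at -0.0974 without AdGFP replicate 3 and -0.0112 without AdCre replicate 1. That in Myl7 share ran from 7.81 to 19.7. That in Myl4 share ran from -4.58 to 3.53, and was positive without AdGFP replicate 3 (3.53), AdCre replicate 1 (1.26) and AdCre replicate 2 (2.17). Myh7 turned to 0.16 without AdGFP replicate 1, 0.13 without AdCre replicate 3 and 0.039 with the block without pair 1. Myl3 turned to 0.042 without AdCre replicate 3 and Myl7 to 0.095 without AdGFP replicate 1, and their lowest values without single samples were -0.652 (Myh7), -0.756 (Myl3) and -0.562 (Myl7). Relative to the cardiomyocyte markers Myh6 (0.32), Myh7 (0.60), Myh7b (0.24), Myl3 (0.45), Myl4 (0.38), Myl7 (0.62) and Mylk3 (0.048) reversed. The mean of these markers itself differed by -0.84 on the log2 scale. Depth limits Mylpf and the hairpins, and counting intervals would cover counting error alone.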

Other observations

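The myosin chains of nonmuscle and smooth muscle cells were examined beside the striated chains. All 10 gene IDs of the 9 symbols were tested, 5 higher and 5 lower in AdCre with a median log2 fold change of -0.01, and 1 was called with the replicate block (0 without it), Myh14, a nonmuscle heavy chain (1.99 ± 0.918 against 0.980 ± 0.493 FPKM, SD, n = 3 each, limma adjusted p 0.0395), named after its values were seen. Myl6b, an essential light chain of embryonic muscle and nonmuscle cells, was at 2.69 ± 0.193 and 4.45 ± 1.28 FPKM (0.67, limma adjusted p 0.116 with the block). Myh9 and Myh10, the heavy chains of nonmuscle myosin IIA and IIB, were at 0.28 and -0.35. Their groups did not overlap, and both were uncalled with the block (limma adjusted p 0.0892 and 0.0793).

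Among 8 mesothelial and epicardial markers 3 were higher and 5 lower. Krt8 and Krt18, keratins of simple epithelia, rose with the block from 48.4 ± 26.4 to 123 ± 30.7 FPKM and from 107 ± 42.3 to 189 ± 16.4 FPKM (limma adjusted p 0.0269 and 0.0432, against 0.329 and 0.340 without the block). Tbx18, an epicardial transcription factor, fell with the block from 19.0 ± 0.581 to 13.8 ± 0.964 FPKM (limma adjusted p 0.0441, against 0.267 without the block). The summed level of the list was 243 to 371 FPKM in AdGFP and 383 to 480 FPKM in AdCre.

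For 4 of the members, the 3 genes with the highest Pearson r over the 6 samples were taken. The candidates were 7249 protein-coding genes averaging at least 5 FPKM. The 6 points share libraries and groups, so the values are descriptions. The highest of 7249 correlations over 6 points can lie near 1 without any relation, and r ignores the size of a difference. For Myh6 they were Akap6 (0.996), Kdm4b (0.994) and Fam160a1 (0.994), with log2 fold changes of -0.62, -0.39 and -0.49 against -0.51 for Myh6. For Myh7 they were Rab3ip (0.997), Afg3l2 (0.996) and Uck2 (0.995). For Myl2 they were Dag1, which encodes dystroglycan (0.997), Eno3, muscle enolase (0.994), and Sra1 (0.991), with log2 fold changes of -0.31, -0.56 and -0.18 against -1.12 for Myl2. For Myl7 they were Eif4enif1 (0.990), Zfr (0.988) and Exoc5 (0.981).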
